A study of Homo sapiens with 6 samples.

Results

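Most of the genes described here make cholesterol or fatty acids, and genes of this kind are commonly switched on by the sterol regulatory element-binding proteins (SREBPs). The others are 4 regulators of the pathway (SREBF1, SREBF2, SCAP and INSIG1) and the sterol carrier STARD4. The list held 32 genes, picked by name for their known place in the pathway with no cut on measured values. Of these, 30 had a transcript cluster (the array's unit of 1 gene or part of it) of their own, among 18418 gene symbols with a cluster of their own and 21214 clusters with a symbol. FDFT1 was not analysed here, and HSD17B7 sat only on a cluster shared with HSD17B7P2, so neither was counted.

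Transcript levels were measured in 3 related human breast cancer lines, with 2 arrays each. 231BrM-2a was selected for metastasis to brain and 231BoM-1833 for metastasis to bone; both descend from MDA-MB-231, a triple-negative line of mesenchymal character and the reference of the study. Each derivative is a selected line set against 1 parental line. All 3 were grown in RPMI-1640 with fetal bovine serum, which itself carries cholesterol, and the labels name no drug, transgene or knockout in any of them. Before RNA was taken, magnetic sorting kept CD24-/CD44+/ESA+ cells, which is taken as a stem-like fraction of breast cancer cells; ESA is the product of EPCAM. The study asked how such cells of the metastatic lines differ from those of the parental line.

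SREBPs are held in the membrane of the endoplasmic reticulum by SCAP and INSIG proteins while sterols are plentiful. When sterols fall, SCAP escorts the SREBP to the Golgi, where proteases free the part that enters the nucleus and binds sterol response elements and E-boxes in promoters, usually together with the factors NF-Y and Sp1. SREBP-2, made from SREBF2, mainly drives cholesterol synthesis and uptake, and the SREBP-1 forms made from SREBF1 mainly drive fatty acid synthesis. Breast tumour cells often build their own fatty acids from acetyl-CoA even when lipid is supplied.

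Promoters of the genes were read from RefSeq (assembly GRCh38.p14), from 250 bases before to 50 after a transcription start. At least 1 promoter was found for 27 of the 30 genes, 37 in all. Both strands were searched for the sterol element core TCACNCCAC, the E-box CACGTG, the NF-Y box CCAAT and the Sp1 box GGGCGG. NF-Y boxes were in promoters of 20 of the 27 genes (74.1%), against 42.3% of the 15211 genes of the array with a promoter. Sp1 boxes were in 26 of 27 (96.3%), against 64.8%. The E-box was in 4 of 27 (14.8%), against 11.0%, and the sterol element core in 1 of 27 (3.70%), against 1.51%. No matches of different motifs overlapped among the 146 found. Such a match is a description of letters and not a shown binding site. The promoters below belong to SREBF2, which alone held the sterol element core in these windows, and to STARD4, SC5D, EBP and NSDHL, each of which had a call against MDA-MB-231 that held under all 15 alternatives tried. For SC5D the first of its promoters is shown. All are written 5′ to 3′ in the direction of the gene, and capitals mark sterol element, E-box and NF-Y matches on either strand, so that ATTGG is an NF-Y box on the opposite strand.
SREBF2, chr22:41832855-41833154, plus strand: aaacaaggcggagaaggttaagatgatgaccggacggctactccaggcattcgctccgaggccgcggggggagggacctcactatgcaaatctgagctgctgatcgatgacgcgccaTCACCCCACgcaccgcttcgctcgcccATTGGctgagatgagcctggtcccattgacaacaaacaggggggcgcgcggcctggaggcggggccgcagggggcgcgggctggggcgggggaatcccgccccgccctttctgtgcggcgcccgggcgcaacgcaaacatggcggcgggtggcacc
STARD4, chr5:111512486-111512785, minus strand: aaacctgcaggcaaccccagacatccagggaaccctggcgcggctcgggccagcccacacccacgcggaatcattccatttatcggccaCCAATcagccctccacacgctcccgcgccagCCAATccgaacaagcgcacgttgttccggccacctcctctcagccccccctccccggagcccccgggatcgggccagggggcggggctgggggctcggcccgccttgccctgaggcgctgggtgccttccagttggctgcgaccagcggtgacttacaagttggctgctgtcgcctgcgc
SC5D, chr11:121292521-121292820, plus strand: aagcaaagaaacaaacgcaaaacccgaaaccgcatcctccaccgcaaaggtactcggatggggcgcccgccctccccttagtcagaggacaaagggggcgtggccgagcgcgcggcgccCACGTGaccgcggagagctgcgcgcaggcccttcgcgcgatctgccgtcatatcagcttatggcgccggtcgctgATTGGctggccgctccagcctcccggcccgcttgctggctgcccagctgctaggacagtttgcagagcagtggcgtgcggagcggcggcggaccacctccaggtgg
EBP, chrX:48521558-48521857, plus strand: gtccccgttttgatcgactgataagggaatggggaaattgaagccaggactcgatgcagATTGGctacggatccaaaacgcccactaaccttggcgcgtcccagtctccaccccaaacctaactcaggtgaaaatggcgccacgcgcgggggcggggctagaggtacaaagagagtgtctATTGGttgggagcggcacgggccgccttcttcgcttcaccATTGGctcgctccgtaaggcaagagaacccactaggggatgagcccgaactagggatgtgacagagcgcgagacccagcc
NSDHL, chrX:152830813-152831112, plus strand: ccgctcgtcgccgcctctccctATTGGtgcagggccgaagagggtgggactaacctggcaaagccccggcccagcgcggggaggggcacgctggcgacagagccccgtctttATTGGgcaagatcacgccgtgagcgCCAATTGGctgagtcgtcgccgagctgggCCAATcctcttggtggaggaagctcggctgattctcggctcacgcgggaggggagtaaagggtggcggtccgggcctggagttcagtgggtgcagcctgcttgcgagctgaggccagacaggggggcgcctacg
The SREBF2 element begins at base -133 from the start. STARD4 had NF-Y boxes at -161 and -130, and SC5D an E-box at -131 and an NF-Y box at -56. EBP had 3 NF-Y boxes and NSDHL 5, of which a pair on opposite strands overlap. EBP and NSDHL, both rich in NF-Y boxes and lacking the sterol element core and the E-box in these windows, differed in opposite directions in 231BrM-2a, as given below.

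**Figure D1:**
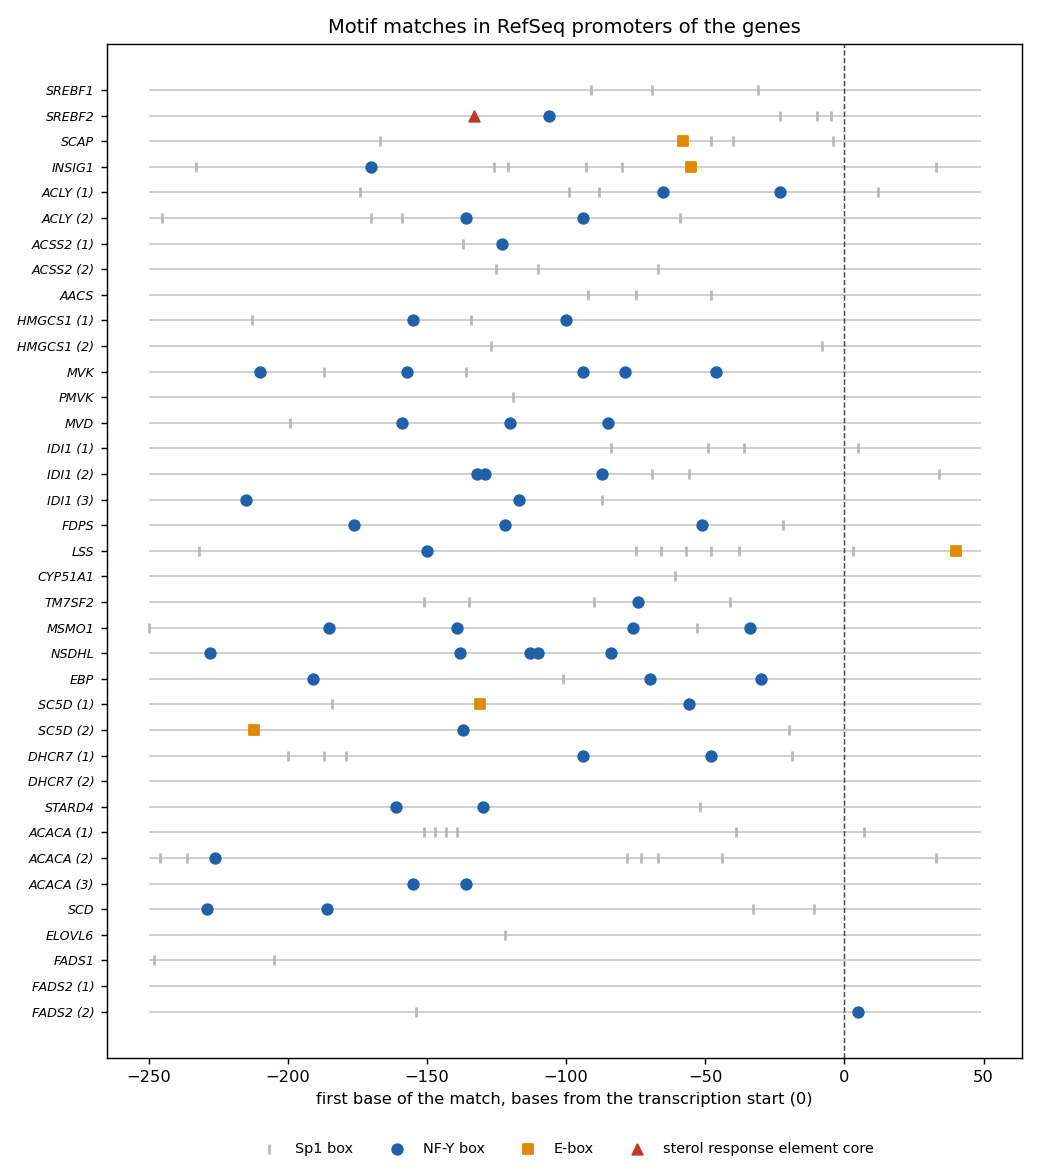
Motif matches in the 37 RefSeq promoters of the 27 genes, by the distance of the first base of the match from the transcription start (x axis, bases); each row is a promoter, and numbers in brackets tell promoters of a gene apart. NF-Y and Sp1 matches are spread over most rows, and the sterol element core appears only in SREBF2.

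All values are log2 expression values from the authors' normalisation, with a difference of 1 being a factor of 2. The arrays had medians of 7.25 to 7.30 over the named clusters, and replicate arrays correlated at r = 0.9935 to 0.9959 across clusters, which are not independent replicates. The number of arrays limits the precision, and since the labels leave the origin of the replicates unstated beyond the word biological, p-values reflect array-to-array spread that may be technical. Of the sort markers, CD44 read 11.45 and 11.46 in 231BrM-2a, 12.17 and 11.82 in 231BoM-1833, and 11.87 and 11.86 in MDA-MB-231, EPCAM averaged 8.19 in 231BrM-2a, 7.80 in 231BoM-1833 and 8.03 in MDA-MB-231, and CD24 averaged 5.91 in 231BrM-2a, 6.12 in 231BoM-1833 and 6.12 in MDA-MB-231. None of the 3 passed the test against MDA-MB-231, and CD44 was lower in 231BrM-2a than in 231BoM-1833 (33.3% of the 3, against 11.0% of all clusters). Against MDA-MB-231, 10.5% of all clusters passed as higher and 8.59% as lower in 231BrM-2a, and 8.43% and 7.38% in 231BoM-1833.

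A gene was called when the adjusted p of limma's test, corrected over all 21214 clusters with a symbol, was under 0.05. In 231BoM-1833 against MDA-MB-231, 4 of the 30 genes rose (13.3%, against 8.43% of all clusters), 5 fell (16.7%, against 7.38%) and 21 did not pass; their median log2 difference was -0.13, against -0.05 over all clusters. In 231BrM-2a against MDA-MB-231, 4 rose (13.3%, against 10.5%), 4 fell (13.3%, against 8.59%) and 22 did not pass, with a median of -0.06, against -0.05. In 231BrM-2a against 231BoM-1833, 5 were higher (16.7%, against 12.5%), 7 lower (23.3%, against 11.0%) and 18 did not pass, with a median of -0.08, against 0.01. In each comparison calls ran both ways, and the margin over the share of all clusters was a few genes of 30, which is not read as a result about the list. The counts moved when single arrays were left out: 2 to 8 higher and 2 to 3 lower for 231BoM-1833 against MDA-MB-231, 2 to 4 and 1 to 6 for 231BrM-2a against MDA-MB-231, and 2 to 5 and 3 to 7 between the derivatives. The 8 were reached without 231BoM-1833 replicate 2, and the 2 higher and 2 lower in that line without either MDA-MB-231 array. The 1 lower in 231BrM-2a was left without MDA-MB-231 replicate 2 or either 231BrM-2a array, and the 2 and 3 between the derivatives without 231BrM-2a replicate 2. The comparisons share arrays and are not independent of each other.

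**Figure D2:**
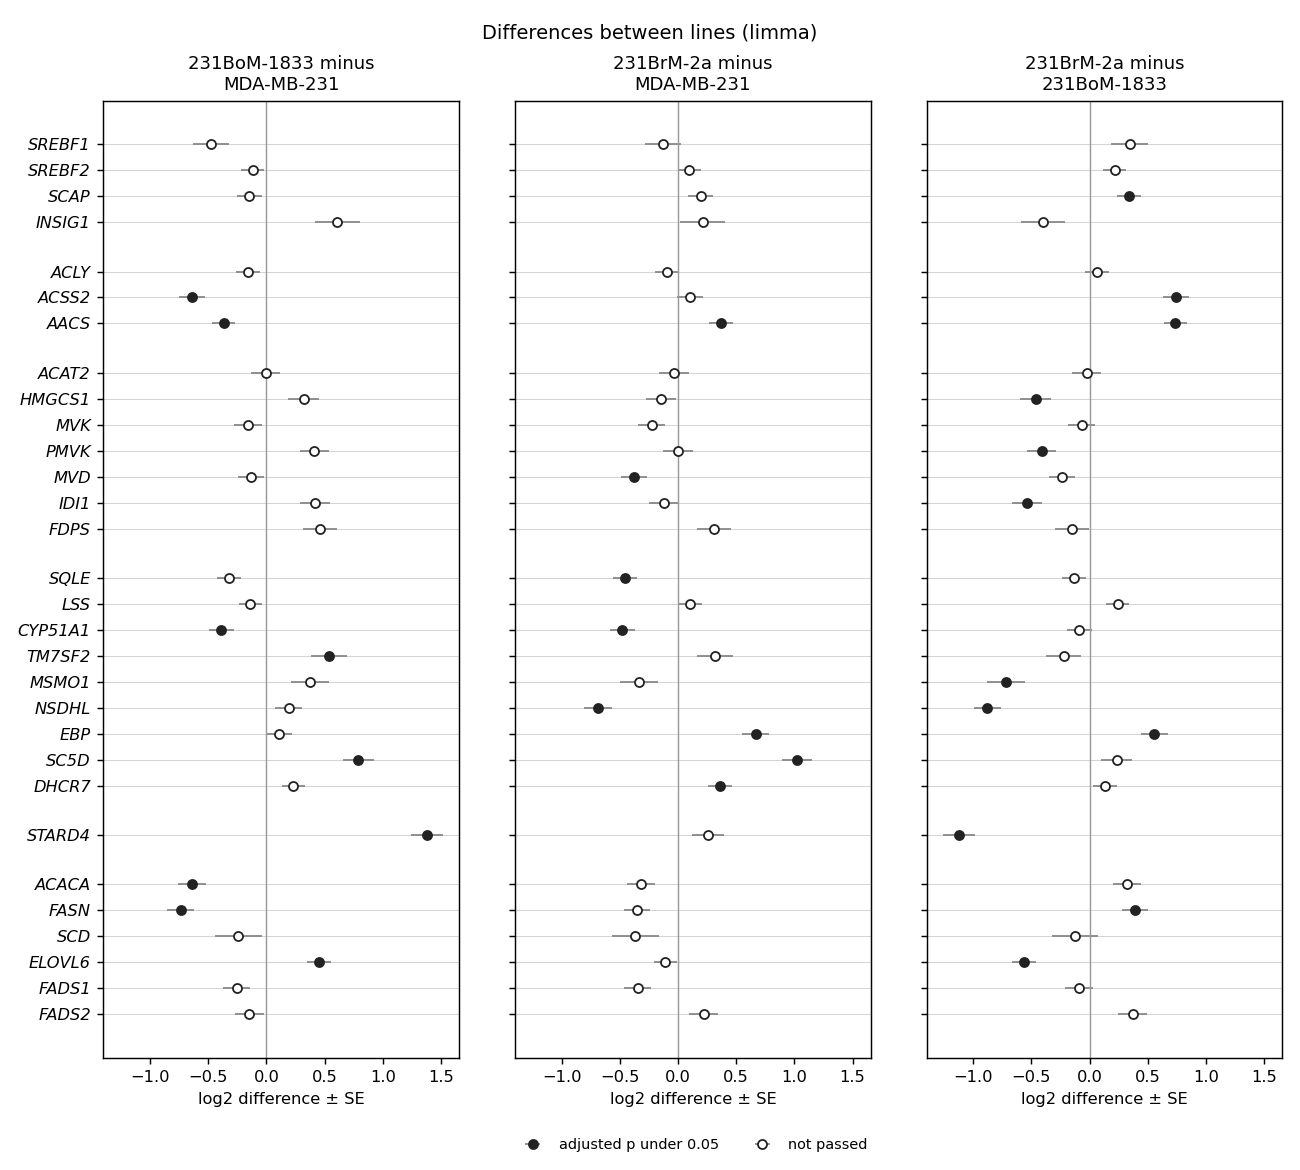
Log2 difference of each of the 30 genes with its standard error (x axis) in the 3 comparisons, from limma on 6 arrays; filled points have an adjusted p under 0.05, and open points did not pass. Filled points lie on both sides of 0 in every panel, with STARD4 farthest right in 231BoM-1833 minus MDA-MB-231 and SC5D in 231BrM-2a minus MDA-MB-231.

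None of the 4 regulators of the pathway was called in either derivative against MDA-MB-231. Of all clusters, 10.5% rose and 8.59% fell in 231BrM-2a, and 8.43% and 7.38% in 231BoM-1833. A count of 0 of 4 is thus not read as a result about the regulators. SREBF2 read 8.45 and 8.46 in 231BrM-2a, 8.27 and 8.21 in 231BoM-1833, and 8.36 and 8.35 in MDA-MB-231. The 95% interval of its log2 difference from MDA-MB-231 ran from -0.13 to 0.32 in 231BrM-2a and from -0.34 to 0.11 in 231BoM-1833. Differences within these bounds, in either direction, remained compatible with these arrays. SREBF1 read 8.47 and 8.23 in 231BrM-2a, 7.93 and 8.08 in 231BoM-1833, and 8.26 and 8.69 in MDA-MB-231. Both 231BoM-1833 arrays were the low ones, with a log2 difference of -0.47 ± 0.156 (SE, adjusted p = 0.0705), and the MDA-MB-231 arrays lay 0.43 apart. Across the 15 alternatives the SREBF1 difference in 231BoM-1833 ran from -0.69 to -0.26. It was largest in size without MDA-MB-231 replicate 1, the lower of these 2 arrays.

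SCAP, the sterol-sensing escort, read 9.18 and 9.25 in 231BrM-2a, 8.82 and 8.92 in 231BoM-1833, and 8.97 and 9.06 in MDA-MB-231. It was higher in 231BrM-2a than in 231BoM-1833 by 0.34 ± 0.105 (SE, adjusted p = 0.0437), with the parental arrays between them, and this call was lost without any 1 of the 6 arrays (adjusted p 0.0621 to 0.207). INSIG1, which retains SCAP in the endoplasmic reticulum and is itself an SREBP target, read 8.66 and 8.67 in 231BrM-2a, 9.37 and 8.76 in 231BoM-1833, and 8.29 and 8.62 in MDA-MB-231. Both 231BoM-1833 arrays were above both parental ones, by 0.61 ± 0.19 on average (SE, adjusted p = 0.0591), but the 231BoM-1833 replicates lay 0.60 apart. Across the 15 alternatives the INSIG1 difference ran from 0.31 to 0.91 in 231BoM-1833 against MDA-MB-231. In 231BrM-2a against 231BoM-1833 it ran from -0.70 to -0.10. Both differences were largest in size without 231BoM-1833 replicate 2.

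Of the 13 further genes listed for SREBP processing and turnover, 11 were measured. In 231BrM-2a against MDA-MB-231, 3 rose and 0 fell (27.3% and 0%, against 10.5% and 8.59% of all clusters), and in 231BoM-1833, 3 rose and 1 fell (27.3% and 9.09%, against 8.43% and 7.38%). In 231BrM-2a against 231BoM-1833, 4 were higher and 1 lower (36.4% and 9.09%, against 12.5% and 11.0%). INSIG2, the relative of INSIG1 that is not induced by SREBPs, read 10.06 and 10.19 in 231BrM-2a, 9.76 and 9.63 in 231BoM-1833, and 8.97 and 8.88 in MDA-MB-231. It rose by 1.20 ± 0.109 in 231BrM-2a (SE, adjusted p = 0.000135) and by 0.77 ± 0.109 in 231BoM-1833 (adjusted p = 0.00251), and the arrays of the 3 lines did not overlap. MBTPS2, the protease that makes the final cut in SREBP release, read 9.55 and 9.69 in 231BrM-2a, 8.81 and 8.80 in 231BoM-1833, and 8.35 and 8.41 in MDA-MB-231. It was 1.24 ± 0.104 above MDA-MB-231 in 231BrM-2a (SE, adjusted p = 9.55e-05), and 0.81 ± 0.104 above 231BoM-1833 (adjusted p = 0.000599). PAQR3, a Golgi protein that anchors the SCAP-SREBP complex there, was 0.66 ± 0.140 higher in 231BoM-1833 than in MDA-MB-231 (SE, adjusted p = 0.0147), a call lost without MDA-MB-231 replicate 1 (0.0684) or 2 (0.10) or 231BoM-1833 replicate 1 (0.0525). In 231BrM-2a it was 0.68 ± 0.140 below 231BoM-1833 (adjusted p = 0.00715), a call lost without 231BrM-2a replicate 1 (0.0648).

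Of the 3 enzymes that supply cytosolic acetyl-CoA and its relatives, ACSS2 and AACS were called higher in 231BrM-2a than in 231BoM-1833 (66.7%, against 12.5% of all clusters). ACSS2, which makes acetyl-CoA from acetate, read 9.51 and 9.65 in 231BrM-2a, 8.79 and 8.89 in 231BoM-1833, and 9.53 and 9.42 in MDA-MB-231. It was low in 231BoM-1833 alone, 1.56-fold below MDA-MB-231 (log2 -0.64 ± 0.110 SE, adjusted p = 0.00623), a call lost without MDA-MB-231 replicate 1 (adjusted p = 0.0522). Between the derivatives it was 1.68-fold higher in 231BrM-2a (log2 0.74 ± 0.110 SE, adjusted p = 0.00132).

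AACS, which turns acetoacetate, a ketone body, into acetoacetyl-CoA, read 8.44 and 8.36 in 231BrM-2a, 7.66 and 7.67 in 231BoM-1833, and 8.0 and 8.06 in MDA-MB-231. The 3 lines did not overlap, with the parental arrays in the middle. AACS was 1.67-fold higher in 231BrM-2a than in 231BoM-1833 (log2 0.74 ± 0.101 SE, adjusted p = 0.00086), a call kept when any 1 array was left out. Against MDA-MB-231 it was 0.37 ± 0.101 higher in 231BrM-2a (SE, adjusted p = 0.0323) and 0.37 ± 0.101 lower in 231BoM-1833 (adjusted p = 0.0394). The call in 231BrM-2a was lost without either array of that line or of MDA-MB-231 (adjusted p 0.109 to 0.166), and the call in 231BoM-1833 without any 1 of the 6 arrays (0.0674 to 0.185). ACLY, which cleaves citrate to acetyl-CoA and was the brightest of the 30 genes' clusters, read 11.18 and 11.27 in 231BrM-2a, 11.21 and 11.12 in 231BoM-1833, and 11.32 and 11.33 in MDA-MB-231. Its differences did not pass, and the 95% intervals ran from -0.33 to 0.14 in 231BrM-2a and from -0.39 to 0.08 in 231BoM-1833 against MDA-MB-231.

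The 7 genes of the mevalonate and isoprenoid steps, from acetyl-CoA to farnesyl diphosphate, were all lower on average in 231BrM-2a than in 231BoM-1833 (log2 -0.54 to -0.03), and 3 of them were called lower (42.9%, against 11.0% of all clusters). This shared direction depended on single arrays. On 231BoM-1833 replicate 1, ACAT2, HMGCS1 and FDPS were over 0.3 higher than on replicate 2. Without 231BoM-1833 replicate 1 the differences of ACAT2 (0.13), MVK (0.023) and FDPS (0.040) were positive. Without 231BrM-2a replicate 2 that of ACAT2 (0.025) was positive. IDI1, which isomerises isopentenyl diphosphate, read 9.01 and 8.81 in 231BrM-2a, 9.59 and 9.30 in 231BoM-1833, and 9.05 and 9.01 in MDA-MB-231. HMGCS1, the synthase that forms HMG-CoA, read 7.88 and 8.03 in 231BrM-2a, 8.58 and 8.26 in 231BoM-1833, and 8.15 and 8.05 in MDA-MB-231. PMVK, the second kinase of the route, read 8.06 and 7.88 in 231BrM-2a, 8.31 and 8.46 in 231BoM-1833, and 7.84 and 8.10 in MDA-MB-231. In each of these genes both 231BoM-1833 arrays were above every other array. The log2 differences of 231BrM-2a from 231BoM-1833 were -0.54 ± 0.130 for IDI1 (SE, adjusted p = 0.0158), -0.46 ± 0.131 for HMGCS1 (adjusted p = 0.0308) and -0.41 ± 0.127 for PMVK (adjusted p = 0.0442). The IDI1 call was lost without 231BoM-1833 replicate 1 (0.0717) or 231BrM-2a replicate 2 (0.121). The HMGCS1 call was lost without any array other than 231BoM-1833 replicate 2 (0.0516 to 0.177), and the PMVK call without 231BoM-1833 replicate 2 (0.169) or either 231BrM-2a array (0.0801 and 0.244).

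Against MDA-MB-231, 0 of the 7 genes of these steps were called in 231BoM-1833, where 8.43% of all clusters rose and 7.38% fell. PMVK (0.41, adjusted p = 0.0579), IDI1 (0.42, 0.0589) and FDPS (0.46, 0.0646) came close to the threshold there. FDPS, which makes farnesyl diphosphate, read 9.39 and 9.64 in 231BrM-2a, 9.86 and 9.47 in 231BoM-1833, and 9.26 and 9.15 in MDA-MB-231, so both derivatives lay above the parental arrays and overlapped each other. Across the 15 alternatives the log2 differences of 231BoM-1833 from MDA-MB-231 ran from 0.27 to 0.56 for IDI1, 0.27 to 0.65 for FDPS and 0.16 to 0.48 for HMGCS1. The highest of each was reached without 231BoM-1833 replicate 2. In 231BrM-2a, MVD alone of the 7 was called, and it was lower (14.3%, against 8.59% of all clusters). This decarboxylase, which forms isopentenyl diphosphate, read 8.33 and 8.52 in 231BrM-2a, 8.64 and 8.70 in 231BoM-1833, and 8.85 and 8.76 in MDA-MB-231, a log2 difference of -0.38 ± 0.111 from MDA-MB-231 (SE, adjusted p = 0.0451). Leaving out any array of these 2 lines ended the call (0.0757 to 0.249). ACAT2 and MVK were not called in any comparison, with log2 differences between -0.23 and -0.01. Of 11 measured genes that use the isoprenoids made here, 0 rose and 1 fell (9.09%) in each derivative against MDA-MB-231, close to the 8.59% of all clusters that fell in 231BrM-2a and the 7.38% in 231BoM-1833. That gene was PDSS1, which builds the tail of coenzyme Q (-0.76, adjusted p = 0.0103 in 231BrM-2a, and -0.55, 0.0464 in 231BoM-1833). In 231BrM-2a the call ended without MDA-MB-231 replicate 2 (0.0903) or 231BrM-2a replicate 1 (0.0654) or 2 (0.0524), and that in 231BoM-1833 without any array other than 231BoM-1833 replicate 1 (0.0731 to 0.237). Between the derivatives 0 of the 11 were higher in 231BrM-2a and 1 was lower, ZMPSTE24, a protease that matures farnesylated proteins (-0.65, adjusted p = 0.0100), a call lost without 231BrM-2a replicate 2 (0.0710).

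**Figure D3:**
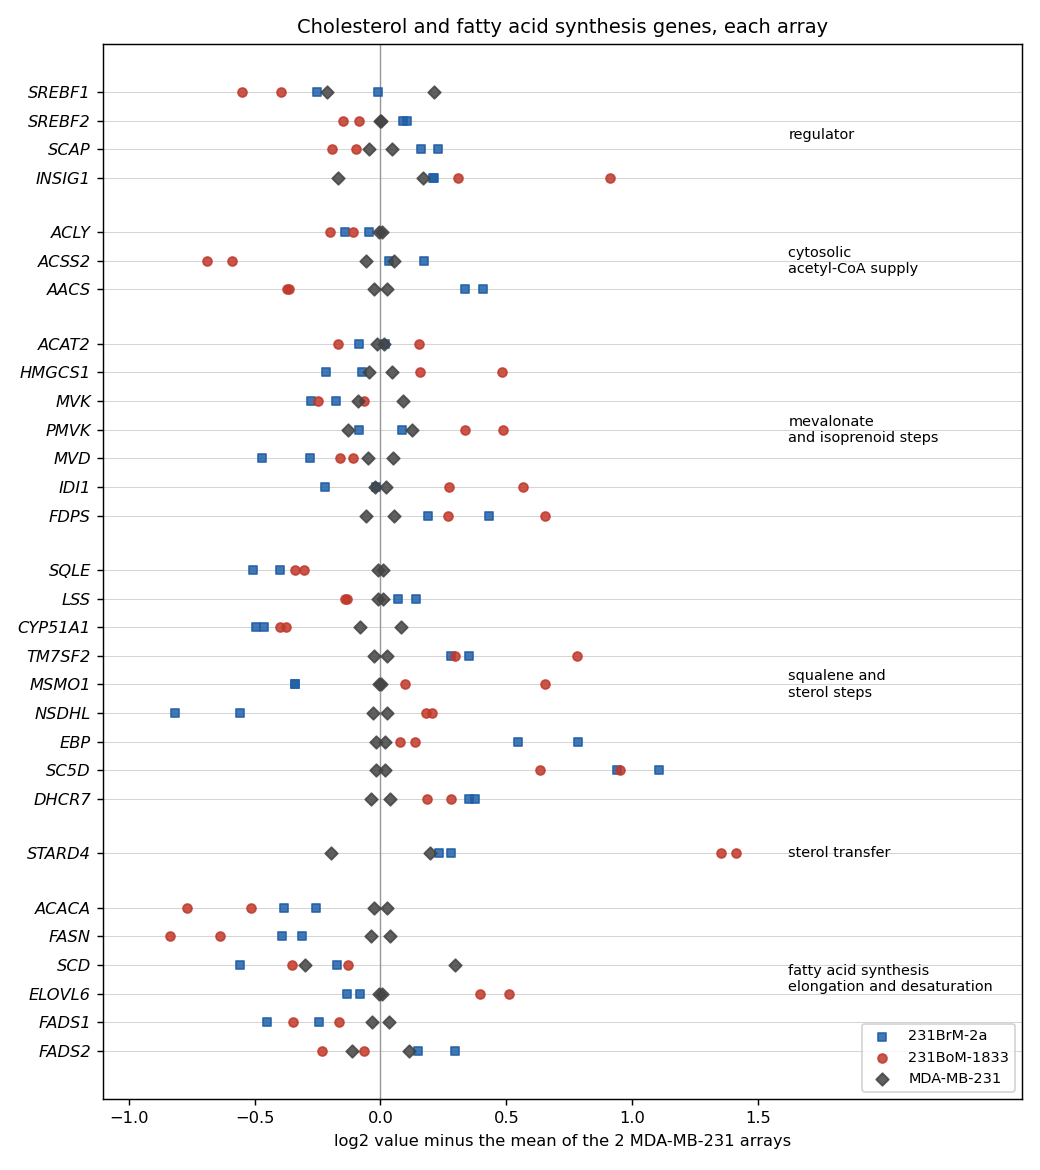
Log2 value on each array minus the mean of the 2 MDA-MB-231 arrays (x axis) for the 30 genes, grouped by role; each point is 1 array. STARD4 stands out in 231BoM-1833, SC5D is to the right in both derivatives, and FASN and ACACA are to the left in both.

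Of the 9 genes of the squalene and sterol steps, 3 rose and 3 fell in 231BrM-2a against MDA-MB-231 (33.3% each way, against 10.5% and 8.59% of all clusters). In 231BoM-1833, 2 rose and 1 fell (22.2% and 11.1%, against 8.43% and 7.38%). SC5D, the desaturase of a late step whose promoter is printed above, read 9.20 and 9.04 in 231BrM-2a, 9.05 and 8.73 in 231BoM-1833, and 8.08 and 8.11 in MDA-MB-231. All 4 arrays of the derivatives were above both parental ones. SC5D was 2.03-fold higher in 231BrM-2a (log2 1.02 ± 0.130 SE, adjusted p = 0.000903) and 1.73-fold higher in 231BoM-1833 (log2 0.79 ± 0.130 SE, adjusted p = 0.00511), and both calls were kept when any 1 array was left out. The derivatives themselves overlapped, with a log2 difference of 0.23 (95% interval -0.06 to 0.52).

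EBP, the sterol isomerase acting just before SC5D, read 9.09 and 9.33 in 231BrM-2a, 8.69 and 8.63 in 231BoM-1833, and 8.57 and 8.53 in MDA-MB-231. It was high in 231BrM-2a, 1.59-fold above MDA-MB-231 (log2 0.67 ± 0.115 SE, adjusted p = 0.0041) and 1.47-fold above 231BoM-1833 (log2 0.56 ± 0.115 SE, adjusted p = 0.00732). The second call was lost without 231BrM-2a replicate 2 (adjusted p = 0.0709). DHCR7, a last reductase of cholesterol synthesis, read 9.85 and 9.88 in 231BrM-2a, 9.69 and 9.78 in 231BoM-1833, and 9.46 and 9.54 in MDA-MB-231. It rose by 0.36 ± 0.103 in 231BrM-2a (SE, adjusted p = 0.0374), a call lost without any array of these 2 lines (0.116 to 0.172), and its difference in 231BoM-1833 was 0.23 (0.153).

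NSDHL, a dehydrogenase in the removal of methyl groups from the sterol ring, went the other way in 231BrM-2a. It read 8.03 and 8.29 in 231BrM-2a, 9.03 and 9.05 in 231BoM-1833, and 8.82 and 8.87 in MDA-MB-231. The 231BrM-2a arrays were the low ones, 1.61-fold below MDA-MB-231 (log2 -0.69 ± 0.117 SE, adjusted p = 0.00382) and 1.84-fold below 231BoM-1833 (log2 -0.88 ± 0.117 SE, adjusted p = 0.000724), and both calls held without any 1 array. MSMO1, the oxidase that acts with NSDHL, read 8.74 and 8.74 in 231BrM-2a, 9.73 and 9.18 in 231BoM-1833, and 9.08 and 9.08 in MDA-MB-231. The order of the lines was the same as for NSDHL, and the difference of 231BrM-2a from 231BoM-1833 was -0.72 ± 0.164 (SE, adjusted p = 0.0122), lost without 231BrM-2a replicate 1 (0.0626) or 2 (0.0647). Against MDA-MB-231, MSMO1 differed by -0.34 in 231BrM-2a (0.187) and by 0.38 in 231BoM-1833 (0.148). Across the 15 alternatives the MSMO1 difference from MDA-MB-231 ran from 0.10 to 0.65 in 231BoM-1833 and from -0.38 to -0.33 in 231BrM-2a. It was called lower in 231BrM-2a with each pair of lines fitted alone (adjusted p = 0.0380).

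SQLE and CYP51A1, an early oxygenase and the demethylase of lanosterol, had lower values on all 4 arrays of the derivatives than on both MDA-MB-231 arrays. SQLE read 8.61 and 8.71 in 231BrM-2a, 8.81 and 8.78 in 231BoM-1833, and 9.10 and 9.12 in MDA-MB-231. It fell by 0.45 ± 0.102 in 231BrM-2a (SE, adjusted p = 0.0144), a call lost without any array of these 2 lines (0.0543 to 0.104); in 231BoM-1833 its difference was -0.32 ± 0.102 (0.0629). CYP51A1 read 9.97 and 9.94 in 231BrM-2a, 10.03 and 10.05 in 231BoM-1833, and 10.35 and 10.51 in MDA-MB-231. Its differences were -0.48 ± 0.106 in 231BrM-2a (SE, adjusted p = 0.0136) and -0.39 ± 0.106 in 231BoM-1833 (adjusted p = 0.0390). A second CYP51A1 cluster gave -0.28 and -0.22, neither called. In 231BrM-2a the call ended without MDA-MB-231 replicate 2 (0.114) or either 231BrM-2a array (0.0677 and 0.0888), and that in 231BoM-1833 without any 1 of the 6 arrays (0.0680 to 0.224). TM7SF2, a sterol reductase, read 7.57 and 7.50 in 231BrM-2a, 7.52 and 8.0 in 231BoM-1833, and 7.19 and 7.25 in MDA-MB-231. It was 0.54 ± 0.152 higher in 231BoM-1833 (SE, adjusted p = 0.0433), a call lost without any array other than 231BoM-1833 replicate 1 (0.0688 to 0.158). LSS, which closes the sterol rings, was not called in any comparison (log2 -0.14 to 0.24).

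STARD4, a soluble protein that carries cholesterol between membranes and a known SREBP target, had the largest difference of the 30 genes. It read 9.13 and 9.08 in 231BrM-2a, 10.20 and 10.26 in 231BoM-1833, and 9.04 and 8.65 in MDA-MB-231. The 231BoM-1833 arrays stood more than 1 log2 unit above the other 4. STARD4 was 2.61-fold higher in 231BoM-1833 than in MDA-MB-231 (log2 1.38 ± 0.136 SE, adjusted p = 0.000403) and 2.18-fold lower in 231BrM-2a than in 231BoM-1833 (log2 -1.13 ± 0.136 SE, adjusted p = 0.00041). Both calls were kept when any 1 array was left out, and the first ranked 186 by size among the 21214 clusters. In 231BrM-2a against MDA-MB-231 the difference was 0.26 (95% interval -0.05 to 0.56, adjusted p = 0.225).

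**Figure D4:**
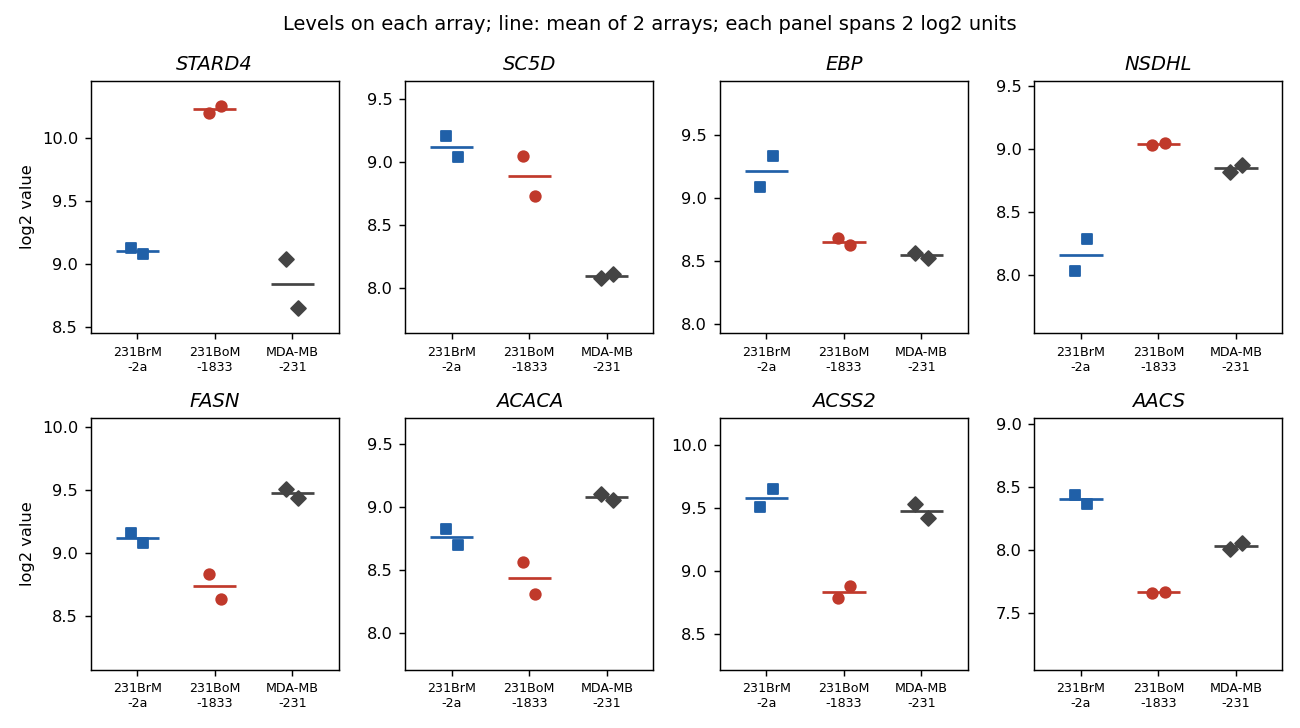
Log2 value on each array (points) and the mean of the 2 arrays (line) of 8 genes in 231BrM-2a, 231BoM-1833 and MDA-MB-231; each panel spans 2 log2 units on its own range. STARD4 is high in 231BoM-1833, SC5D in both derivatives and EBP in 231BrM-2a, NSDHL is low in 231BrM-2a, and FASN, ACACA, ACSS2 and AACS are lowest in 231BoM-1833.

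FASN and ACACA, which carry out fatty acid synthesis itself, were lowest in 231BoM-1833. FASN, the synthase that builds palmitate, read 9.16 and 9.08 in 231BrM-2a, 8.84 and 8.64 in 231BoM-1833, and 9.51 and 9.44 in MDA-MB-231. The 3 lines did not overlap. FASN was 1.67-fold lower in 231BoM-1833 than in MDA-MB-231 (log2 -0.74 ± 0.112 SE, adjusted p = 0.00366), a call kept when any 1 array was left out. In 231BrM-2a it differed from MDA-MB-231 by -0.35 ± 0.112 (SE, adjusted p = 0.0586), and by -0.40 to -0.31 across the 15 alternatives. FASN was called lower there with each pair of lines fitted alone (adjusted p = 0.0383). Between the derivatives FASN was 0.39 ± 0.112 higher in 231BrM-2a (SE, adjusted p = 0.0346), a call lost without any array other than 231BoM-1833 replicate 1 (0.0566 to 0.178).

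ACACA, the carboxylase that makes the malonyl-CoA used by FASN, read 8.82 and 8.70 in 231BrM-2a, 8.56 and 8.31 in 231BoM-1833, and 9.10 and 9.05 in MDA-MB-231. The lines kept the order seen for FASN without overlap. ACACA was 1.56-fold lower in 231BoM-1833 than in MDA-MB-231 (log2 -0.64 ± 0.120 SE, adjusted p = 0.00903), a call lost without MDA-MB-231 replicate 1 (0.0608) or 2 (0.0591). Its difference in 231BrM-2a was -0.32 ± 0.120 (SE, adjusted p = 0.0977), and that between the derivatives was 0.32 ± 0.120 (0.0865). Across the 15 alternatives the latter ran from 0.19 to 0.45.

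ELOVL6, which lengthens palmitate, was the 1 gene among the 6 of this group called higher in 231BoM-1833 than in MDA-MB-231 (16.7%, against 8.43% of all clusters). It read 8.67 and 8.72 in 231BrM-2a, 9.31 and 9.20 in 231BoM-1833, and 8.80 and 8.81 in MDA-MB-231. It was 1.37-fold higher in 231BoM-1833 than in MDA-MB-231 (log2 0.45 ± 0.103 SE, adjusted p = 0.0196) and 1.48-fold lower in 231BrM-2a than in 231BoM-1833 (log2 -0.56 ± 0.103 SE, adjusted p = 0.0041). The first call ended without MDA-MB-231 replicate 1 (0.0885) or 2 (0.105) or 231BoM-1833 replicate 1 (0.0618), and the second was kept when any 1 array was left out. SCD, which puts the double bond into stearate, read 9.72 and 9.34 in 231BrM-2a, 9.77 and 9.55 in 231BoM-1833, and 9.60 and 10.20 in MDA-MB-231, overlapping in every comparison. With the parental arrays 0.60 apart, its 95% intervals against MDA-MB-231 were wide, -0.82 to 0.09 in 231BrM-2a and -0.69 to 0.21 in 231BoM-1833. FADS1 and FADS2, the desaturases of polyunsaturated fatty acids, were not called in any comparison (log2 -0.35 to 0.37).

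Genes that handle sterols outside synthesis were also followed. Of 17 measured genes of sterol uptake, storage and efflux, 6 rose and 1 fell in 231BrM-2a against MDA-MB-231 (35.3% and 5.88%, against 10.5% and 8.59% of all clusters). In 231BoM-1833, 3 rose and 4 fell (17.6% and 23.5%, against 8.43% and 7.38%), and 7 were higher and 2 lower in 231BrM-2a than in 231BoM-1833 (41.2% and 11.8%, against 12.5% and 11.0%). ABCA1, which exports cholesterol, read 9.03 and 8.68 in 231BrM-2a, 7.90 and 8.45 in 231BoM-1833, and 7.60 and 7.77 in MDA-MB-231, and rose by 1.17 ± 0.186 in 231BrM-2a (SE, adjusted p = 0.00278). NPC2, the lysosomal carrier that passes cholesterol out of that compartment, read 11.04 and 11.16 in 231BrM-2a, 10.82 and 10.73 in 231BoM-1833, and 10.00 and 9.92 in MDA-MB-231, and rose by 1.14 ± 0.106 in 231BrM-2a (SE, adjusted p = 0.000158). ABCG1, another exporter, read 5.74 and 5.50 in 231BrM-2a, 5.44 and 5.62 in 231BoM-1833, and 6.50 and 6.44 in MDA-MB-231. It fell in both derivatives, by 0.85 ± 0.122 in 231BrM-2a (SE, adjusted p = 0.00174) and by 0.94 ± 0.122 in 231BoM-1833 (adjusted p = 0.00177). These ABCG1 values lay below the array medians of 7.25 to 7.30, and the filter on dim clusters removed the gene. No detection limit was available. NCEH1, which frees cholesterol from stored esters, was highest in 231BoM-1833, with 10.30 and 10.48 in 231BrM-2a, 11.71 and 11.25 in 231BoM-1833, and 10.62 and 10.57 in MDA-MB-231. It was 0.89 ± 0.152 higher in 231BoM-1833 than in MDA-MB-231 (SE, adjusted p = 0.00626), a call lost without MDA-MB-231 replicate 2 (0.0577), and 1.09 ± 0.152 lower in 231BrM-2a than in 231BoM-1833 (adjusted p = 0.000953). CAV1, the coat protein of cholesterol-rich membrane pits, was 1.09 ± 0.15 higher in 231BrM-2a than in 231BoM-1833 (SE, adjusted p = 0.000891).

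Of 27 measured genes with other parts in making or handling fatty acids, 7 rose and 6 fell in 231BrM-2a against MDA-MB-231 (25.9% and 22.2%, against 10.5% and 8.59% of all clusters). In 231BoM-1833, 6 rose and 5 fell (22.2% and 18.5%, against 8.43% and 7.38%), and 7 were higher and 6 lower in 231BrM-2a than in 231BoM-1833 (25.9% and 22.2%, against 12.5% and 11.0%). ELOVL7, an elongase of longer saturated chains, read 9.15 and 9.18 in 231BrM-2a, 8.31 and 8.22 in 231BoM-1833, and 7.42 and 6.95 in MDA-MB-231. It rose by 1.98 ± 0.15 in 231BrM-2a (SE, adjusted p = 5.92e-05) and by 1.08 ± 0.15 in 231BoM-1833 (adjusted p = 0.00238). ME1, which supplies the NADPH that FASN consumes, rose by 0.91 ± 0.114 in 231BrM-2a (SE, adjusted p = 0.00086). PPARG, a nuclear receptor for fatty acids, read 8.25 and 8.22 in 231BrM-2a, 7.07 and 7.18 in 231BoM-1833, and 7.94 and 7.68 in MDA-MB-231. It was 1.11 ± 0.118 higher in 231BrM-2a than in 231BoM-1833 (SE, adjusted p = 0.000204) and fell by 0.69 ± 0.118 in 231BoM-1833 against MDA-MB-231 (adjusted p = 0.00642), a call lost without MDA-MB-231 replicate 1 (0.0526). HACD2, a dehydratase of the elongation cycle, was 1.15 ± 0.139 higher in 231BrM-2a than in 231BoM-1833 (SE, adjusted p = 0.000405).

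Of 18 measured genes of fatty acid oxidation, the opposing route, 4 rose and 3 fell in 231BrM-2a against MDA-MB-231 (22.2% and 16.7%, against 10.5% and 8.59% of all clusters). In 231BoM-1833, 3 rose and 1 fell (16.7% and 5.56%, against 8.43% and 7.38%), and 3 were higher and 5 lower in 231BrM-2a than in 231BoM-1833 (16.7% and 27.8%, against 12.5% and 11.0%). CPT1A, which loads fatty acids for entry into mitochondria, read 9.16 and 9.18 in 231BoM-1833, against 10.17 and 9.99 in MDA-MB-231, and fell by 0.91 ± 0.125 (SE, adjusted p = 0.00222). CPT2, its partner inside the mitochondrion, read 7.80 and 7.98 in 231BoM-1833, against 7.07 and 7.08 in MDA-MB-231, and rose by 0.81 ± 0.109 (adjusted p = 0.00195). The pair thus moved in opposite directions. PDK4, a kinase that turns pyruvate away from acetyl-CoA, read 8.52 and 10.20 in 231BrM-2a, 6.58 and 6.27 in 231BoM-1833, and 6.72 and 6.47 in MDA-MB-231. Its rise in 231BrM-2a against MDA-MB-231 was 2.77 ± 0.417 (SE, adjusted p = 0.00214), with the replicates of 231BrM-2a far apart; it was 3.60 without 231BrM-2a replicate 1 and 1.93 without replicate 2. Between 231BrM-2a and 231BoM-1833 the difference was 2.93 ± 0.417 (adjusted p = 0.00107), or 3.77 and 2.10 without those arrays. PPARD, a receptor that drives oxidation genes, read 8.57 and 8.60 in 231BrM-2a, 10.06 and 10.13 in 231BoM-1833, and 9.60 and 9.37 in MDA-MB-231, so that the lines did not overlap. It was 1.51 ± 0.114 lower in 231BrM-2a than in 231BoM-1833 (SE, adjusted p = 2.72e-05) and fell by 0.90 ± 0.114 in 231BrM-2a against MDA-MB-231 (adjusted p = 0.000907).

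Markers of other cells and of growth were read beside these values. The 7 adipocyte markers summed on the linear scale to 402 to 422 in 231BrM-2a, 413 to 420 in 231BoM-1833 and 398 to 409 in MDA-MB-231. FABP4 lay between 3.09 and 3.32 log2 on the 6 arrays. Of the 7 markers LPL alone was called, higher in 231BoM-1833 than in MDA-MB-231 by 0.72 (adjusted p = 0.0084). That is 14.3% of the markers, against 8.43% of all clusters. The 6 measured leukocyte markers summed to 2110 to 2189 in 231BrM-2a, 3172 to 3682 in 231BoM-1833 and 2569 to 2674 in MDA-MB-231. These sums rest mostly on the brightest marker. The highest mean was 10.91 in 231BrM-2a, 11.54 in 231BoM-1833 and 11.19 in MDA-MB-231, against medians of 4.81, 4.73 and 4.77. CD14 was 0.50 lower in 231BrM-2a and 0.88 higher in 231BoM-1833 than in MDA-MB-231, while PTPRC lay between 3.60 and 3.86 on every array. Against MDA-MB-231, 0 of the 6 rose and 1 fell in 231BrM-2a (0% and 16.7%, against 10.5% and 8.59% of all clusters). In 231BoM-1833, 1 rose and 0 fell (16.7% and 0%, against 8.43% and 7.38%). Between the derivatives, 0 of the 6 were higher and 2 lower in 231BrM-2a (0% and 33.3%, against 12.5% and 11.0% of all clusters). The 12 proliferation genes summed to 18342 to 20189 in 231BrM-2a, 13264 to 17426 in 231BoM-1833 and 15043 to 15105 in MDA-MB-231. Against MDA-MB-231, 4 were higher and 0 lower in 231BrM-2a (33.3% and 0%, against 10.5% and 8.59% of all clusters). In 231BoM-1833, 3 were higher and 3 lower (25.0% each way, against 8.43% and 7.38%). The 5 luminal genes summed to 9294 to 9777 in 231BrM-2a, 6211 to 6261 in 231BoM-1833 and 6888 to 7331 in MDA-MB-231. Of these 5, 1 was called higher and 0 lower in 231BrM-2a against MDA-MB-231 (20.0% and 0%, against 10.5% and 8.59% of all clusters). In 231BoM-1833, 0 were higher and 1 lower (0% and 20.0%, against 8.43% and 7.38%). Between the derivatives, 3 were higher and 0 lower in 231BrM-2a (60.0% and 0%, against 12.5% and 11.0%). Means of the 5 genes ran from 5.01 to 12.24 log2 in 231BrM-2a, so these sums weigh the brightest gene most. The 3 mesenchymal genes summed to 11572 to 11840 in 231BrM-2a, 11901 to 14227 in 231BoM-1833 and 13195 to 13225 in MDA-MB-231. VIM (-0.37, adjusted p = 0.0294) and ZEB1 (-0.54, adjusted p = 0.00855) fell in 231BrM-2a against MDA-MB-231. ZEB1 fell in 231BoM-1833 (-0.44, adjusted p = 0.0248), and VIM was lower in 231BrM-2a than in 231BoM-1833 (-0.59, adjusted p = 0.00256). Each is 33.3% of the 3, against 7.38% and 11.0% of all clusters. FN1, the third of these genes, did not pass in any comparison. Its log2 difference from MDA-MB-231 was 0.06 in 231BrM-2a and -0.33 in 231BoM-1833, and that of 231BrM-2a from 231BoM-1833 was 0.38. The part of growth rate, luminal or mesenchymal character or a mix of cells in the differences above was not tested.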

How the data were processed

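Total RNA of sorted cells from 3 lines was measured on 6 arrays (Affymetrix Human Gene 1.0 ST), with 2 for each line. The deposited values are log2 expression values that the authors normalised with RMA (Affymetrix Expression Console), as the submitters' processing notes say without a version. RMA forces the arrays onto 1 scale and hides any change in RNA content per cell, and in bulk samples fewer cells of a type cannot be told from less RNA per cell. No detection limit or batch was available to the fit.

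Of 33297 clusters, 21214 carried a symbol; genes were named from clusters with 1 symbol, using the brightest on average where a gene had several. limma 3.58.1 (R 4.3.3, lmFit and eBayes) took the 6 arrays in 1 fit with a mean for each line; its tests were two-sided, adjusted by Benjamini-Hochberg over the 21214 clusters and called under 0.05. Residual degrees of freedom were 3 and prior ones 6.06. The fit was tested on simulated data. The genes and the lists around them were picked by name for their known roles, and, like the alternatives, with earlier results of these data known. Values per array are given for genes called in any comparison, up to 12 per comparison, and for the main regulators and enzymes. From each surrounding list the 2 called genes with the largest difference are named. The 15 alternatives were leaving out each array, a replicate block, further scaling, a filter on dim clusters, and other forms of the fit and of the choice of clusters. Replicate numbers did not pair the arrays: the deviations of same-numbered arrays correlated at 0.04 (231BoM-1833 with MDA-MB-231), -0.16 (231BrM-2a with MDA-MB-231) and -0.17 (231BrM-2a with 231BoM-1833). Motifs were counted in RefSeq promoters of GRCh38.p14, and no coordinates of the array's probes were used.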

Additional observations from a re-analysis of the deposited data

Results flagged for a closer look

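For 12 of the 30 genes the differences of the derivatives from MDA-MB-231 were themselves different, by limma's test between 231BrM-2a and 231BoM-1833. These are the calls between the derivatives counted above, 5 higher and 7 lower in 231BrM-2a (16.7% and 23.3%, against 12.5% and 11.0% of all clusters). As log2 differences of 231BrM-2a from 231BoM-1833, ACSS2 (0.74, adjusted p = 0.00132), AACS (0.74, 0.00086), EBP (0.56, 0.00732), FASN (0.39, 0.0346) and SCAP (0.34, 0.0437) were higher in 231BrM-2a. STARD4 (-1.13, adjusted p = 0.00041), NSDHL (-0.88, 0.000724), MSMO1 (-0.72, 0.0122), ELOVL6 (-0.56, 0.0041), IDI1 (-0.54, 0.0158), HMGCS1 (-0.46, 0.0308) and PMVK (-0.41, 0.0442) were lower there. The calls of ACSS2, AACS, STARD4, NSDHL and ELOVL6 held when any 1 array was left out, and each of the other 7 was lost without at least 1 array. Groups of 2 arrays are too small to test a single array as an outlier.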

How the results depend on the processing

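The calls kept under all 15 alternatives were SC5D, NSDHL and EBP in 231BrM-2a against MDA-MB-231, STARD4, SC5D and FASN in 231BoM-1833 against MDA-MB-231, and ACSS2, AACS, NSDHL, STARD4 and ELOVL6 between the derivatives; 5, 6 and 7 other calls were lost under at least 1, and no called gene changed sign. Leaving out 1 array gave 2 to 4 genes higher and 1 to 6 lower in 231BrM-2a against MDA-MB-231, 2 to 8 and 2 to 3 in 231BoM-1833 against MDA-MB-231, and 2 to 5 and 3 to 7 in 231BrM-2a against 231BoM-1833, and 1764 to 4751, 932 to 2936 and 3001 to 4750 clusters called. With a replicate block, 2 genes were higher and 3 lower, 4 and 3, and 4 and 6, in the same order of comparisons, and with the numbers crossed in 231BrM-2a, a pairing chosen after seeing the data, 4 and 5, 6 and 6, and 5 and 7. In 231BoM-1833 against MDA-MB-231, the genes lower numbered 3 with each array centred on its median, 3 with all clusters tested and 3 with each pair of lines fitted alone, and the genes higher numbered 7 with the dimmest clusters left out. In 231BrM-2a against MDA-MB-231, 2 were higher with all clusters tested, and 6 were lower with each pair of lines fitted alone. In 231BrM-2a against 231BoM-1833, 3 were higher with each array centred, 3 with all clusters tested and 3 with each pair of lines fitted alone. Counts moved both ways with fewer arrays or lines, and the cause of these changes was not tested.

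Signs turned only for differences that were not called. ACAT2 in 231BoM-1833 against MDA-MB-231 became 0.020 with centred arrays. With 1 array left out, log2 differences of 231BrM-2a from MDA-MB-231 ran from -0.34 to 0.084 for SREBF1, -0.13 to 0.13 for PMVK and -0.085 to 0.018 for ACAT2. Those of 231BoM-1833 from MDA-MB-231 ran from -0.17 to 0.15 for ACAT2 and -0.54 to 0.057 for SCD. Those of 231BrM-2a from 231BoM-1833 ran from -0.19 to 0.13 for ACAT2, -0.16 to 0.023 for MVK, -0.34 to 0.040 for FDPS, -0.47 to 0.020 for TM7SF2, -0.32 to 0.067 for SCD and -0.19 to 0.012 for FADS1.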

Other observations

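In 231BoM-1833, several genes of sterol synthesis differed between the replicate arrays. On replicate 1, 6 of the 30 genes (20.0%) were higher than on replicate 2 by at least 0.3 log2, a limit chosen after the values were seen, against 9.14% of all clusters. They were INSIG1, ACAT2, HMGCS1, FDPS, MSMO1 and SC5D. TM7SF2 alone (3.33%, against 7.90%) was higher on replicate 2 by that much. In 231BrM-2a the corresponding counts were 1 and 0, each a smaller share than that of all clusters. In MDA-MB-231 they were 1 and 3 (3.33% and 10%, against 5.43% and 5.37% of all clusters). A share above that of all clusters on 1 replicate was thus not confined to 231BoM-1833. These are values of 2 arrays with no test.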
